A study of Caenorhabditis elegans with 2 samples.

Results

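The CDC-48 segregase is an AAA ATPase, the worm counterpart of mammalian VCP, that pulls ubiquitin-tagged proteins out of complexes and membranes and passes many of them to the proteasome. Its adaptors UFD-1 and NPL-4 bind it as a pair and hold the ubiquitin chain of the substrate. Together they act in degradation from the endoplasmic reticulum and in the removal of proteins from chromatin. In Caenorhabditis elegans the ATPase is encoded by the paralogues cdc-48.1 and cdc-48.2, UFD-1 by ufd-1, and NPL-4 by the gene copies npl-4.1 and npl-4.2. These 5 genes were chosen from 19973 nuclear protein-coding genes for their place in the segregase, with results of these data already known. In particular, cdc-48.1 was chosen because it carries the strongest entry of the pooled peak list, so the values that follow from that choice are a description and were not tested.

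Binding of eGFP-tagged UNC-62, a transcription factor with a Meis-type homeodomain, was mapped by ChIP-seq in whole L1 larvae, the first larval stage. All animals were of strain OP600, which carries unc119(ed3) and the insertion wgIs600, an unc-62::TY1 EGFP FLAG transgene with unc119, and males and females were pooled. The only group, UNC-62 L1, had 2 biological replicates of this strain. Both replicates therefore share the transgene, and no untagged strain or other stage was compared here. The genotype given names no mutation of unc-62 itself, and the sources used here do not say whether untagged native protein was also present. Lists from whole larvae do not tell in which cells the protein was bound.

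An entry is 1 interval of a deposited list with its signal value, the authors' measure of enrichment, which is used here to rank and describe entries within a list. The pooled list and each replicate list held 30000 entries. A shorter list, of 119 entries, kept those that passed a threshold on the irreproducible discovery rate (IDR), a measure of how well replicate rankings match. These were the pooled entries ranked 1 to 119 by signal, and 112 of them met an entry of both replicate lists. Membership of the IDR list thus coincides with pooled rank here and is no separate evidence of replicate agreement. Lists of such fixed length reach down to weak entries: the lowest signal was 9.05 in the pooled list, 5.17 in that of replicate 1 and 5.33 in that of replicate 2. The pooled list was deposited as peaks and background together. An entry with a low −log10 q-value is not told apart from background. Among pooled entries within 3 kb of the 5 genes, −log10 q was 2.54 at the strongest of cdc-48.1 and 0.0269 to 0.0667 at all others. Signal values of different lists are not on 1 scale. The lists held no read counts, so depth is unknown.

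The sequences directly upstream of the annotated 5′ ends of both paralogues are shown first, because the strongest entry of the pooled list lies over that of cdc-48.1 and an entry near the foot of the pooled list over that of cdc-48.2. Each run holds the 300 bases before the gene, in the direction of the gene, from build ce11 (RefSeq WBcel235). Capitals mark matches on either strand to 14 motifs that are spelled out further on. In cdc-48.1 the first are the hexamer GCGCGA (read on the other strand) and a TATA box. An overlapping pair made of the SKN-1 core (on the other strand) and the Meis core follows, then a TATA box on the other strand. In cdc-48.2 they are a Meis core and a GATA motif, both on the other strand. The pooled summit of cdc-48.1 is base 138 of its run.
cdc-48.1, chrII:10563408-10563707, minus strand: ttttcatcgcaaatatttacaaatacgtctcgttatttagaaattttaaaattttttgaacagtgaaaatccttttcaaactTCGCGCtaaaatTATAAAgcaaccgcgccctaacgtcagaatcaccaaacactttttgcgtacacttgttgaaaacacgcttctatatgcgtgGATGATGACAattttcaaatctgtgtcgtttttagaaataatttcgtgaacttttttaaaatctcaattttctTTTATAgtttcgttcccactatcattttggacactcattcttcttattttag
cdc-48.2, chrII:8138196-8138495, plus strand: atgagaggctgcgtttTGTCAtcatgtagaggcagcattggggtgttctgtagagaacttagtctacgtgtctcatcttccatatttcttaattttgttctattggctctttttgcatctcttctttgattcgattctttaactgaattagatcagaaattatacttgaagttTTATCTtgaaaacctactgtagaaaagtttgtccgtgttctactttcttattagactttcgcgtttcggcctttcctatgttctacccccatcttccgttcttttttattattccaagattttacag

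The entry at cdc-48.1 ranked 4 or better in both replicates, and the other entries around it were weak. In the pooled list it had a signal of 128, rank 1. In replicate 1 its signal was 37.0, rank 4, and in replicate 2 it was 86.9, rank 1. The signal was 5.25 times the list median in replicate 1, 12.0 times in replicate 2 and 10.8 times in the pooled list. In replicate 1 it reached 67.0% of the highest signal of the list. The entries above it there were those nearest to T28F12.1 (55.2, within unc-62), T23G4.127 (40.5) and Y111B2A.12 (39.0). Of the 119 IDR entries, 2 ranked 5 or better in both replicates, those of cdc-48.1 and Y111B2A.12. This count depends on the cutoff. The entries nearest to T28F12.1 (rank 1 in replicate 1, 6 in replicate 2) and rpl-3 (6 and 3) fell just outside it. Because cdc-48.1 was chosen for its rank, the count is a description.

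The summits of the cdc-48.1 entry lay 163 bp upstream of the 5′ end in the pooled list, 160 bp in replicate 1 and 167 bp in replicate 2. The replicate summits were therefore 7 bp apart. Over the 112 IDR entries that met an entry of both replicate lists the median shift was 36.5 bp (quartiles 9.0 and 62.5 bp), and 26 of them, cdc-48.1 included, shifted by 7 bp or less. The pooled interval (chromosome II, 10563402 to 10563737) overlapped the gene record by 6 bases and otherwise lay in sequence between protein-coding genes. It ended 374 bp before C06A1.6, the next gene upstream on the same strand. The 5′ ends of C06A1.6 and C06A1.7, at 1271 and 1484 bp from that of cdc-48.1, also lay within 3 kb of the summit, so a 3 kb rule would assign the entry to these genes as well. The nearest small RNA gene was the snoRNA gene C06A1.9, inside cdc-48.1, whose 5′ end was 506 bp from the summit. All 31-base words of the interval occurred once in the genome.

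Such a position was common among the strong entries. Of the 119 IDR entries, 66 lay upstream of and within 1 kb of the nearest 5′ end, at a median distance of 237 bp (quartiles 156 and 333 bp). Their median signal was 42.1. Many worm messages are trans-spliced, so an annotated 5′ end need not be where transcription starts, and offsets here are to the annotation. Other pooled entries within 3 kb of cdc-48.1 had signals of 11.9 (rank 15107, 2431 bp downstream, in a coding exon) and 10.5 (rank 21449, 1341 bp upstream, 70 bp from the 5′ end of C06A1.6). The first met no entry of either replicate list, and the second met only a replicate 1 entry (6.82, rank 16362). The strong entry had 10.8 times the signal of the next within 3 kb in the pooled list, 5.43 times in replicate 1 and 12.2 times in replicate 2. In replicate 1 another entry, of 6.24, lay 538 bp downstream, and in replicate 2 there were entries of 5.56 at 1802 bp downstream and 7.13 at 2582 bp upstream.

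**Figure D1:**
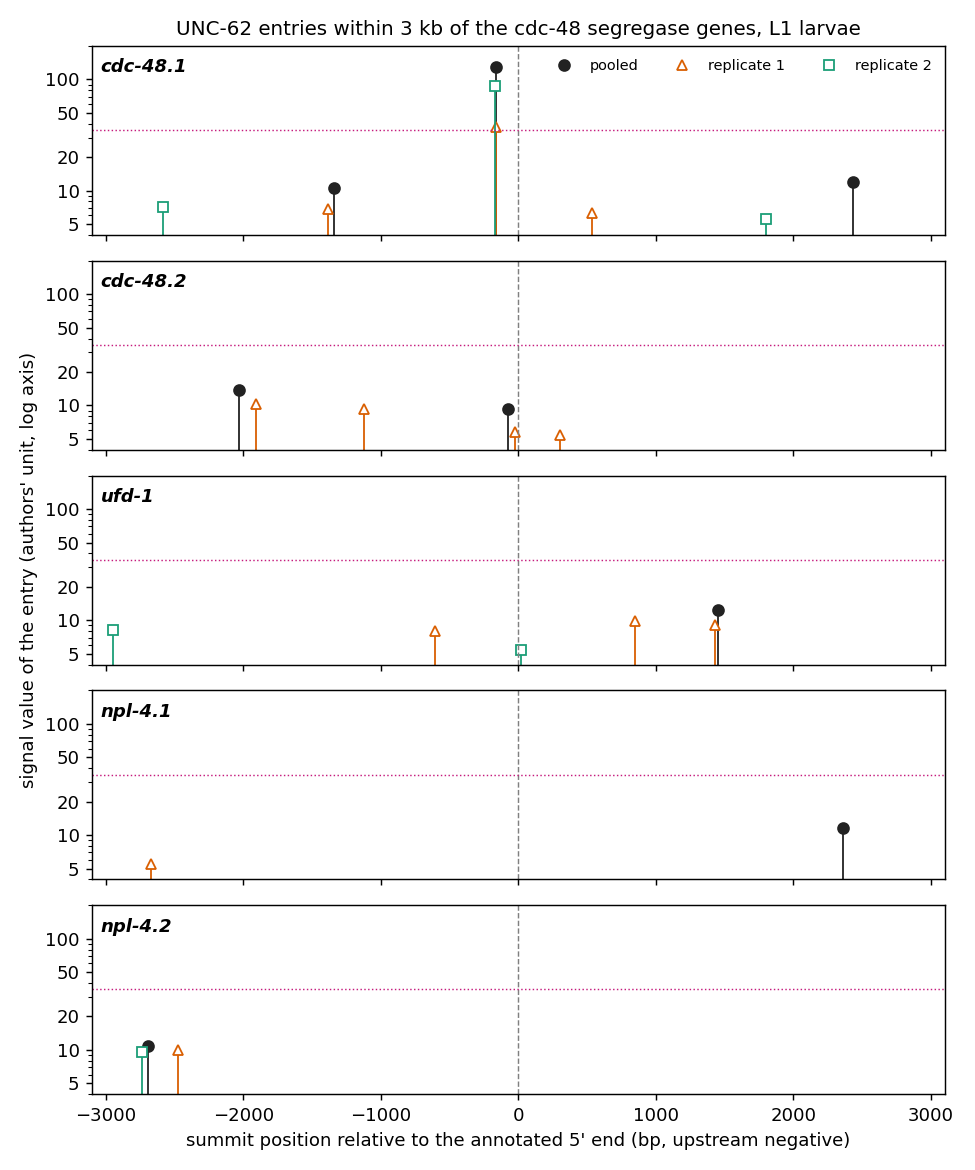
Signal of every listed entry (log axis, authors' unit) against the position of its summit, in bp from the annotated 5′ end, for the 5 genes, with filled circles for the pooled list, triangles for replicate 1 and squares for replicate 2. The dotted line is the lowest pooled signal in the IDR list, 35.0, and applies to the circles alone; the circle at cdc-48.1, 163 bp upstream, is the only one above it.

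The paralogue cdc-48.2 lacked such an entry. Within 3 kb of its 5′ end (chromosome II, 8138496, plus strand) the pooled list held an entry of signal 13.8, rank 8776, and an entry of 9.32, rank 28200. The stronger lay 2034 bp upstream, in an intron of the divergent neighbour ctns-1, whose 5′ end is closer (456 bp). It met a replicate 1 entry (10.2, rank 3665) and no replicate 2 entry. The weaker (chromosome II, 8138249 to 8138584) lay 79 bp upstream of cdc-48.2, in the gap of 1577 bp that separates the gene from ctns-1, and 6% of pooled entries had a lower signal. It met a replicate 1 entry with a signal of 5.80, rank 24085, and no replicate 2 entry. Replicate 1 listed further entries of 9.39 at 1120 bp upstream and 5.39 at 306 bp downstream, and replicate 2 listed none within 3 kb.

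Set side by side, the strongest pooled entry within 3 kb had 9.29 times the signal at cdc-48.1 as at cdc-48.2. Within 1 kb, where the cdc-48.2 value is that of the entry 79 bp upstream, the ratio was 13.8. In replicate 1 the ratio within 3 kb was 3.62, and in replicate 2 none could be formed because cdc-48.2 had no entry. The pooled list was made from both replicates, so the pooled and replicate 1 ratios are not independent. With 1 group of 2 replicates no test of the difference is possible, and the contrast was part of how the genes were chosen. Coding sequences of the paralogues matched at 76.3% of 2417 aligned bases. In both cdc-48.2 intervals, as in the strong cdc-48.1 interval, all 31-base words were unique in the genome.

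**Figure D2:**
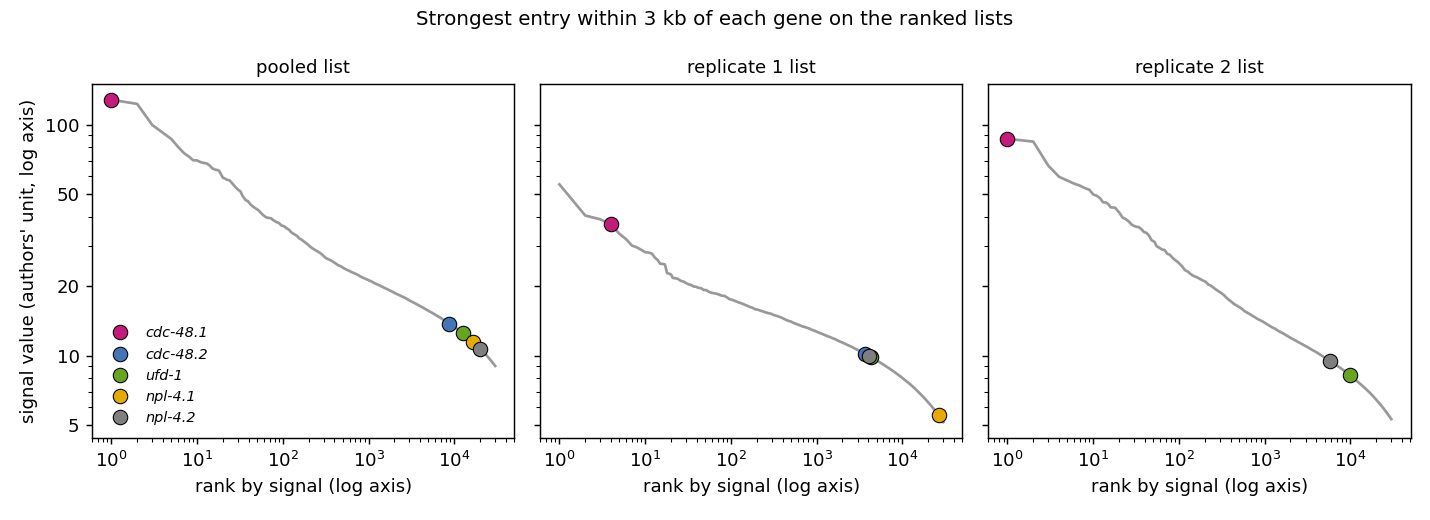
Signal against rank in the pooled, replicate 1 and replicate 2 lists (both axes log, authors' unit), with a point for the strongest entry within 3 kb of each gene. The point of cdc-48.1 is at rank 1, 4 and 1, while the points of the other genes lie at rank 3665 or beyond; cdc-48.2 and npl-4.1 have none in replicate 2.

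GC content at the cdc-48.1 summit was closer to the median of the whole pooled list than to that of the IDR list, while its CpG count was closer to the IDR median. Within 100 bp of the summit GC content was 32.3%, against a median of 44.3% over the IDR windows and 32.3% over all pooled windows. Of the IDR windows 2.52% had a lower GC content. Within 50 bp it was 39.6%, against an IDR median of 49.5% and a pooled median of 31.7%. The 201-base window held 10 CpG dinucleotides, against a median of 12 in IDR windows and 5 in pooled windows. In 41-base windows over the 300 bases upstream, GC content varied from 17.1% at 270 bp upstream of the gene to 51.2% at 180 bp upstream. The windows nearest the summit had 39.0%, and farther upstream of cdc-48.1, beyond these 300 bases, GC content reached 53.7%.

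Of 14 motifs searched on both strands, 4 had a match within 100 bp of the summit. The Meis core TGACA had 1 match, 45 bp from the summit on the side of the gene, and was in 39.5% of IDR and 32.4% of pooled windows. It overlaps the match to the SKN-1 core ATCATC, which was in 13.4% of IDR and 10.3% of pooled windows. The TATA box TATAAA was in 15.1% of IDR and 24.2% of pooled windows. The hexamer GCGCGA, taken with GACGCA from an earlier ranking of these data, was in 22.7% of IDR and 2.24% of pooled windows. A further match to the TATA box and a match to the heat shock element GAANNTTC lay in the rest of the interval.

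Other motifs that were more usual in IDR than in pooled windows had no match at the cdc-48.1 summit. The Meis hexamer TGACAG, in 12.6% of IDR and 6.40% of pooled windows, was not among the letters of this window, nor was the GAGA repeat GAGAGA (42.9% and 10.8%). GACGCA (31.1% and 4.37%) was absent too. Like GCGCGA it was taken from an earlier ranking of these data, so its shares are no separate evidence. Also without a match within 100 bp were the Hox-Pbx motif TGATNNAT (13.4% of IDR and 15.4% of pooled windows), the GATA motif AGATAA (7.56% and 12.4%), the heat shock element (7.56% and 15.03%) and the E-box CACGTG (5.88% and 2.97%). So were the unfolded protein response element core ACGTGG (4.202% and 4.78%), the DAF-16 element GTAAACA (0.840% and 2.56%), and the Pbx-Meis motif, TGAT and ACAG spaced by any 2 bases (0.840% and 0.533%). A match is a run of letters and no measure of binding by the factor named. In the 300 bases upstream of all protein-coding genes a Meis core was found in 43.9%, a TATA box in 39.6%, a GATA motif in 21.6%, a SKN-1 core in 15.1% and GCGCGA in 4.62%.

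The upstream windows of the paralogues were compared position by position, not by the global alignment used for the coding sequences. Laid end to end, these windows had 88 of 300 bases alike (29.3%), and the share expected from base composition is not given here. The longest word they share, found after the sequences were seen, has 10 bases and reads in opposite directions: ATGATGACAA, starting 124 bp before cdc-48.1, and the same letters on the other strand 285 bp before cdc-48.2. It holds the Meis core in both. A longer word, of 12 bases, was shared by cdc-48.1 and the npl-4 copies. The 10-base word was in 89 of 19973 upstream windows of protein-coding genes (0.446%) and in 50 of 30000 pooled summit windows. Among IDR summit windows it was in that of cdc-48.1 alone (1 of 119). The shared word is in capitals in these 40-base stretches of ce11.
cdc-48.1, chrII:10563507-10563546, minus strand: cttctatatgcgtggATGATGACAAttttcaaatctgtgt
cdc-48.2, chrII:8138196-8138235, plus strand: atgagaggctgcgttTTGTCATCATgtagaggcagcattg

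**Figure D3:**
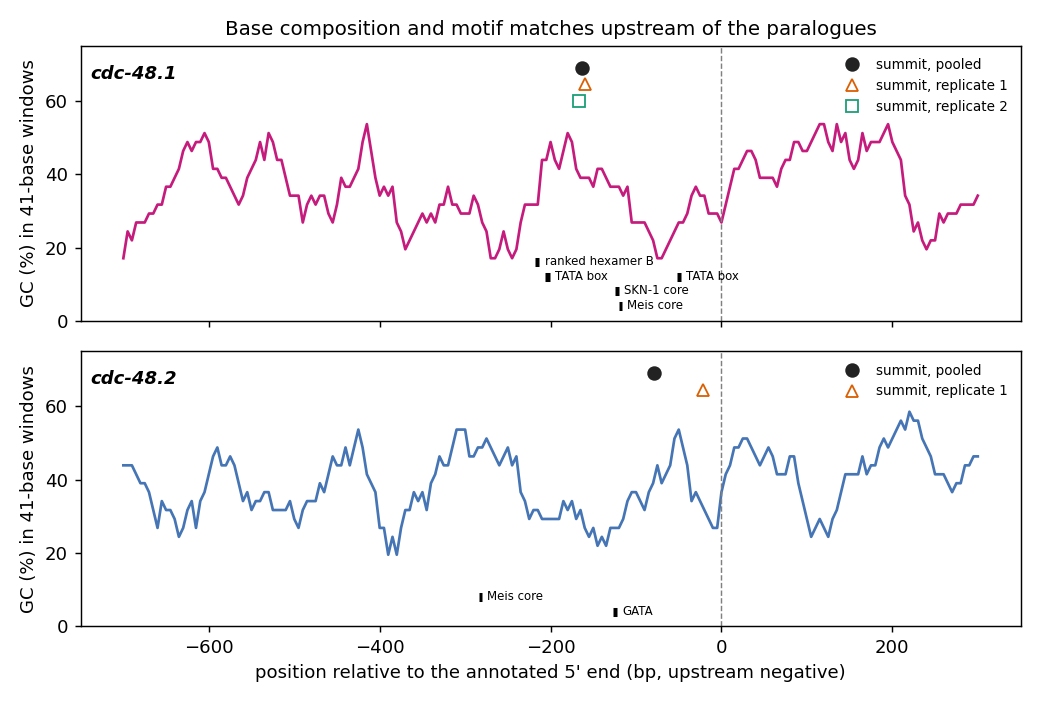
GC content in 41-base windows against position in bp from the annotated 5′ end, cdc-48.1 above cdc-48.2, with symbols for the summits of each list in the plotted range and black bars for motif matches in the 300 bases upstream (ranked hexamer B is GCGCGA). The 3 summits of cdc-48.1 fall within 7 bp of each other near a local GC maximum of 51.2%, and farther upstream the curve reaches 53.7%. For cdc-48.2 there is a pooled summit 79 bp upstream, a replicate 1 summit 22 bp upstream and none from replicate 2.

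The cofactor genes had no IDR entry. The gene ufd-1, which encodes the ubiquitin-binding partner of NPL-4, lies on chromosome IV (12329408 to 12330890, minus strand), 85 bp downstream of F19B6.1 on the same strand. Its 1 pooled entry within 3 kb had a signal of 12.5, rank 12666, and lay 1455 bp downstream of the 5′ end in sequence annotated as 3′ UTR of ufd-1. It met a replicate 1 entry of 9.13, rank 6134, and no replicate 2 entry. Replicate 1 also listed 9.88 at 849 bp downstream and 8.03 at 603 bp upstream. Replicate 2 listed 5.45 at 20 bp downstream, rank 28722, and 8.26 at 2946 bp upstream. No entry of one replicate list within 3 kb of ufd-1 coincided with an entry of the other, and the upstream 300 bases, which run into F19B6.1, held a Meis core, an E-box, a Hox-Pbx motif and overlapping SKN-1 cores.

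The NPL-4 genes had no pooled entry within 2 kb of their 5′ ends. At npl-4.1 (chromosome II, 5631351 to 5633284, plus strand) the 1 pooled entry had a signal of 11.5, rank 16435, lay past the 3′ end at 2360 bp downstream, and met no entry of either replicate. At npl-4.2 (chromosome II, 5622889 to 5624959, plus strand) the 1 pooled entry had a signal of 10.8, rank 20027. It lay 2691 bp upstream in a coding exon of eif-3.L, nearest to the 5′ end of dhs-6, 879 bp away. It met a replicate 1 entry (9.98, rank 4117, summit 217 bp away) and a replicate 2 entry (9.50, rank 5753, summit 44 bp away). Replicate 1 listed 1 other entry, of 5.54, rank 26526, at 2671 bp upstream of npl-4.1.

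The npl-4 copies are nearly the same sequence, which limits what peak lists can show there. Their coding sequences, each of 1587 bases, were 99.5% identical, and the 300 bases upstream were identical at all 300 positions. Within 3 kb of the 5′ end, 49.4% of 31-base words were unique in the genome for npl-4.1 and 49.1% for npl-4.2, against 91.1% for cdc-48.1, 99.9% for cdc-48.2, 99.8% for ufd-1 and 91.3% for the genome. In the gene bodies the share was 13.3% for npl-4.1 and 15.3% for npl-4.2. The single upstream match to the Meis core, 178 bp before each gene, is therefore the same site copied.

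Between the npl-4.2 and npl-4.1 entries the pooled list had no summit for 13513 bp, a stretch that holds both genes and in which 45.6% of words were unique. The median gap between neighbouring pooled summits was 2130.5 bp, and 714 of 29994 gaps (2.38%) were as long or longer. In that stretch replicate 1 listed 2 entries, those at 2474 bp upstream of npl-4.2 and 2671 bp upstream of npl-4.1, and replicate 2 listed 0. Most pooled entries lay in unique sequence: 89 of 30000 entries (0.297%) had under 50% unique words, and 85.1% had only unique words. The part of repeated sequence in the gap was not tested, and how reads with several possible positions were handled is not given in the sources used here. A low value at npl-4.1 or npl-4.2 in these lists therefore cannot be told apart from reads that were not placed.

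**Figure D4:**
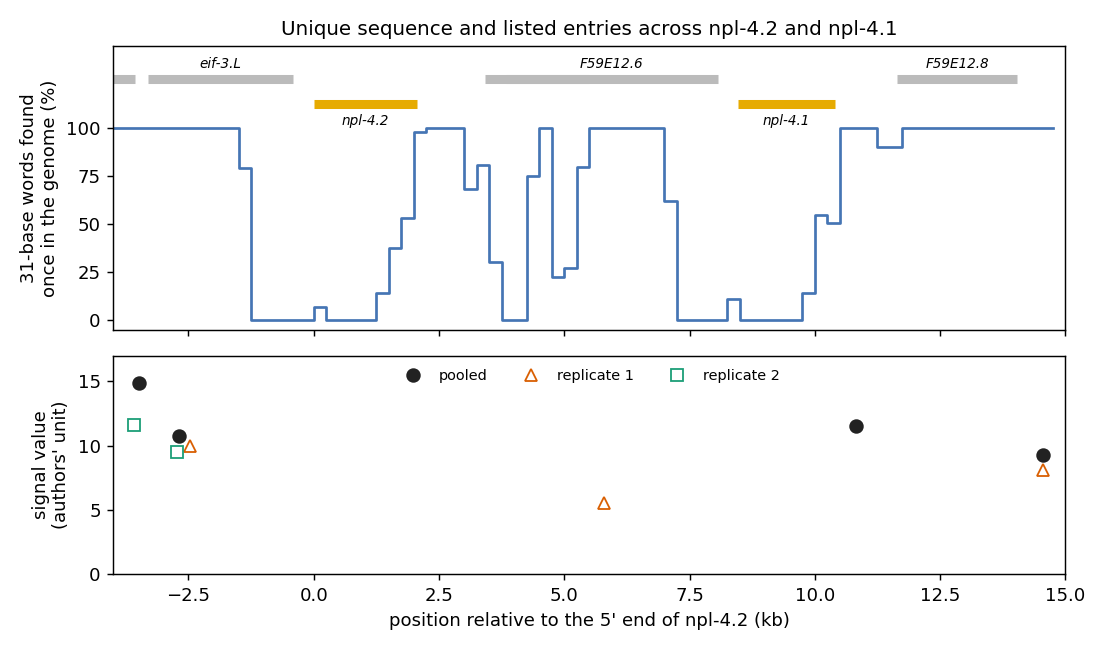
Upper panel, percentage of unique 31-base words along the genome, in 250 bp steps across npl-4.2 and npl-4.1, with gene records drawn above (npl-4 copies in yellow, neighbours in grey); lower panel, signal of the listed entries (authors' unit), both against position in kb from the 5′ end of npl-4.2. The share falls to 0% over much of both copies, and no circle or square lies between 2691 bp before npl-4.2 and 10822 bp after it.

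Counted over all 5 genes, a pooled entry within 3 kb was found at 5 of 5, and 81.3% of all protein-coding genes had one. The 8 pooled entries were 3 at cdc-48.1, 2 at cdc-48.2 and 1 at each cofactor gene. Of these, only the strong cdc-48.1 entry had a −log10 q above 0.0667, so the others were not told apart from background. An entry that met both replicate lists was found at 2 of 5, cdc-48.1 and npl-4.2, against 38.1% of all genes. An IDR entry was found at 1 of 5, cdc-48.1, against 1.00% of all genes, and this count was fixed by the choice of that gene. The strongest pooled signal within 3 kb was 13.8 at cdc-48.2, 12.5 at ufd-1, 11.5 at npl-4.1 and 10.8 at npl-4.2, against a median of 13.5 over the 16242 genes that had an entry. A lower value was found at 52.8% of these genes for cdc-48.2, 38.1% for ufd-1, 26.7% for npl-4.1 and 17.9% for npl-4.2. Apart from cdc-48.1, these genes thus lay near or below the middle of all genes with an entry. The entries counted here for cdc-48.2 and npl-4.2 were nearest to the 5′ ends of ctns-1 and dhs-6. Low values at the npl-4 copies cannot be told apart from reads that were not placed.

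The limits of the rule were as follows. The last entry inside the IDR list had a pooled signal of 35.04 (rank 119) and the first outside had 34.97 (rank 120). The largest distance counted within 3 kb was 2691 bp, at npl-4.2, and the nearest entry beyond it was at 3314 bp upstream of cdc-48.2, with a signal of 12.4. At npl-4.2 the next entry, of 14.9, lay 3493 bp upstream. The nearest entry beyond 3 kb of ufd-1 was stronger than the one inside, with a signal of 17.6 at 4346 bp upstream.

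Other genes of the pathway were read from 4 lists with 44 matched genes. The list of CDC-48 cofactors held further adaptors and substrate-processing enzymes, and also cdc-48.3, a related AAA ATPase gene. It had a pooled entry within 3 kb at 10 of 11 genes, one met in both replicates at 6 and an IDR entry at 0. The exception was ufd-2, a ubiquitin chain elongation enzyme gene, with no pooled entry. Genes of degradation from the endoplasmic reticulum had 8, 4 and 0 of 9, the list of ubiquitin, ubiquitin-like proteins and their activating enzymes 6, 6 and 0 of 6, and other AAA ATPases 17, 11 and 2 of 18. The median of the strongest signal was 16.4 for the cofactors, 13.3 for the endoplasmic reticulum list, 17.6 for the ubiquitin list and 13.1 for other AAA ATPases, beside the 13.5 of all genes. Over the 44 genes together, 41 had a pooled entry, 27 one met in both replicates and 2 an IDR entry, beside 81.3%, 38.1% and 1.00% of all protein-coding genes. These lists were chosen with earlier results known, and the counts were not tested.

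The IDR entries in these lists belonged to rfc-4 and spas-1. At rfc-4, which encodes a subunit of the clamp loader of DNA replication, the pooled signal was 42.3 (rank 53), 145 bp upstream of the gene. It met no replicate 1 entry and a replicate 2 entry of 38.2, rank 26. At spas-1, which encodes the worm spastin, a microtubule-severing enzyme, the signal was 39.5 (rank 69), 283 bp upstream. It ranked 21 in replicate 1 (21.8) and 339 in replicate 2 (18.2). Neither ranked in the first 5 of both replicates. The strongest entry named next in that list, at figl-1, a gene of the same family of severing enzymes, had a signal of 27.4 (rank 288) and lay nearer to mcm-7.

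In the list of cofactors the strongest was atx-3, which encodes a deubiquitinating enzyme, with a signal of 25.2 (rank 409). That summit lay inside mdt-28, 25 bp from the 5′ end of that gene and 2065 bp from that of atx-3. For ubxn-2, a UBX-domain adaptor, the signal was 19.1 (rank 1818), 122 bp upstream, with a replicate 2 entry of 14.6 (rank 785) and no replicate 1 entry. For cdc-48.3, a related AAA ATPase, it was 17.5 (rank 2913), 1853 bp downstream in a coding exon. Of these ubxn-2 alone had its entry directly upstream.

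In the list of ubiquitin and ubiquitin-like proteins the strongest entries were those of uba-2 (26.0, rank 354), which encodes a subunit of the SUMO-activating enzyme, smo-1 (22.2, rank 783), which encodes SUMO, and ubq-2 (19.2, rank 1746), which encodes ubiquitin fused to a ribosomal protein. The uba-2 summit was nearer to vps-25, at 68 bp. The ubq-2 summit lay in ZK1010.2 and that of smo-1 in an intron of K12C11.1. In the endoplasmic reticulum list they were cup-2 (18.0, rank 2533), which encodes a derlin, ubc-7 (14.1, rank 8148), a ubiquitin-conjugating enzyme gene, and marc-6 (13.96, rank 8360), a ubiquitin ligase gene. None of these 6 was an IDR entry.

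**Figure D5:**
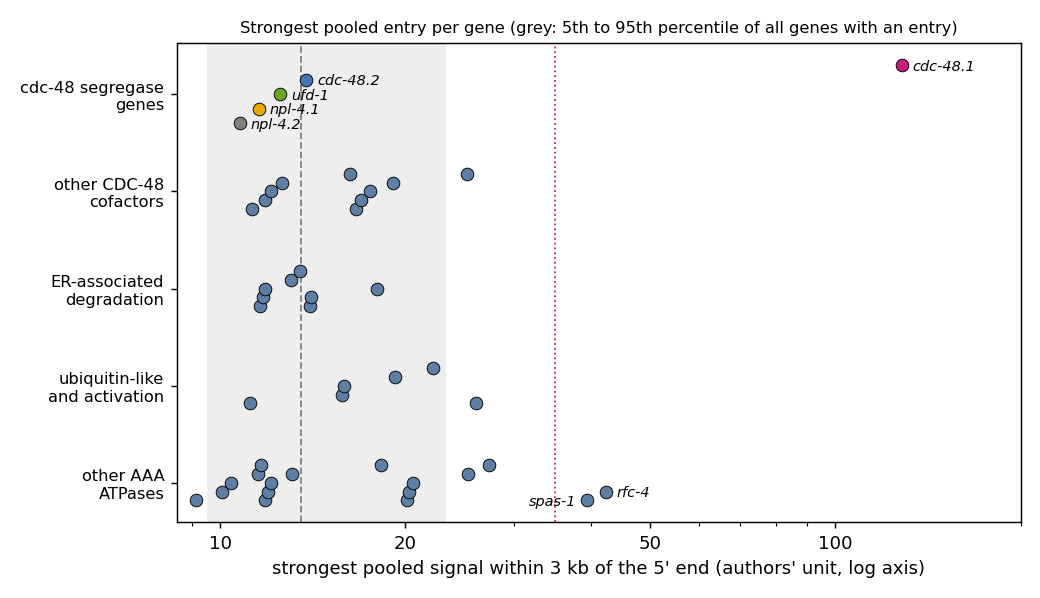
Strongest pooled signal within 3 kb of the 5′ end (log axis, authors' unit), a point per gene with an entry, for the segregase genes and 4 other lists. The dashed line is the median of all protein-coding genes with an entry, 13.5, and the dotted line the lowest IDR signal, 35.0. The point of cdc-48.1 at 128 lies far to the right, and rfc-4 and spas-1 lie just right of the dotted line. Of the other segregase genes, cdc-48.2 (13.8) lies just right of the dashed line. Left of it lie ufd-1 (12.5), npl-4.1 (11.5) and npl-4.2 (10.8).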

How the data were processed

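The deposited peak lists were used as given, in build ce11; the ce10 lists gave only their strongest entries, with no coordinates converted. Per the README files deposited with the samples, each replicate list derives from that replicate's alignments and a control, the pooled list from both replicates and the same control, and the IDR list from these 3 lists. The authors' signal value (column 7) ranked and described entries. The deposited −log10 q-value (column 9) was used as an alternative ranking and to describe which entries were not told apart from background. It was not the main ranking, since 173 pooled entries were tied at its highest value. The labels gave library sizes of 150 to 350 bp. Aligner, peak caller, scaling of the signal and IDR cutoff are not given in the sources used here.

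Coordinates are 1-based, genes and features came from Ensembl release 115 and sequence from the RefSeq copy of WBcel235. Summits were interval centres. Entries of different lists met when they overlapped by 1 bp or more. A 5′ end was that of the gene record. The window of 3 kb and the genes were given, and the pathway lists and motifs were chosen with earlier results of these data known. The names der-1 and nedd-8 were not matched and were left out. The text names the 5 genes, genes sharing or nearest to their entries, and, per list, genes with an IDR entry and the 3 strongest. No test was run, because there is 1 group and the genes were chosen from these values. The functions were tested on simulated data. Coding identity came from global alignment. Python 3.11.15, numpy 2.4.6, pandas 2.3.3, Biopython 1.88 and matplotlib 3.10.9 were used.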

Additional observations from a re-analysis of the deposited data

How the results depend on the processing

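Of 48 alternatives, 4 were added after seeing the data. The cdc-48.1 entry was the only IDR entry at the 5 genes in all 4 alternatives tried for it. That this entry stayed was fixed by the choice of the gene, so it lends no support. The alternatives show only that no other member gained an IDR entry. The rank of the cdc-48.1 entry was 1 to 4 with 1 replicate left out. Ranked by −log10 q, it shared a mean rank of 87 with the tied entries. For cdc-48.2 the rank was 10094 by −log10 q and 3665 without replicate 2, with no value without replicate 1. Genes with an entry numbered 2 within 1 kb, 3 to 5 with 1 replicate left out, and 2 when the entry had to meet both replicate lists. Entries numbered 2 within 1 kb, 15 within 5 kb, 2 met in both replicate lists, 5 when the member had to be the nearest gene, and 6 to 12 with 1 replicate left out. For cdc-48.1 there was 1 entry within 1 kb and 6 within 5 kb, and for cdc-48.2 there was 1 and 4. The signal ratio of cdc-48.1 over cdc-48.2 was 13.8 within 1 kb, 8.93 within 5 kb and 3.62 without replicate 2. GC content at the summit was 39.6% within 50 bp and 31.0% over the interval, with 3 and 5 motifs matched. In the pathway lists 1 gene, rfc-4, had an IDR entry above the median IDR signal, while ubxn-3 joined within 5 kb or from any transcript start, which made 3 genes. Windows and lists that hold fewer or more entries give other counts by construction; the cause of the other shifts was not tested. With 51-base words the unique share within 3 kb was 93.0% at cdc-48.1, 51.4% at each npl-4 copy and 100% at cdc-48.2 and ufd-1. Unknown depth limits any comparison of strength between replicates. No paired analysis was possible because there is only 1 group.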

Other observations

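The ce10 lists, which were not matched to genes because no coordinates were converted, had their strongest pooled entry on chromosome II as well, with a signal of 128. In ce10 the strongest entry of replicate 2 was on chromosome II (86.9), and the strongest on that chromosome in replicate 1 ranked 4 (36.2).

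The 300 bases before the 5′ end finished in AG at cdc-48.1, cdc-48.2 and ufd-1 and in TA at npl-4.1 and npl-4.2, and 27.6% of upstream windows of protein-coding genes finished in AG. Their GC content was 31.0% at cdc-48.1, 36.0% at cdc-48.2, 32.3% at ufd-1 and 32.0% at each npl-4 copy, against a median of 33.3% over all genes. A Meis core was present upstream of all 5 genes, whether or not they had an entry there, and in 43.9% of upstream windows of all genes.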
